A study of Homo sapiens with 12 samples.

Results

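The 9 genes described here belong to MHC class I antigen presentation and were measured in 12 RNA-seq libraries of Ewing sarcoma cells. They were found by their gene symbols, HLA-B, HLA-C, HLA-E, HLA-F, B2M, TAP1, TAP2, TAPBP and NLRC5, and all 9 are among the 56609 symbols of the table. The MHC region has alternate copies in the genome, but each of these 9 symbols had a single row, so nothing had to be added up. The cells are the human lines A4573 and TC-71, both from Ewing sarcoma, a bone and soft tissue cancer in which EWSR1 is fused to an ETS gene, most often FLI1. The groups, with 3 libraries each, are A4573-R in YK-4-279, A4573 parental in the solvent DMSO, TC-71-R in YK-4-279 and TC-71 parental in DMSO. The compound YK-4-279 was designed to keep EWS-FLI1 from binding RNA helicase A, and the R lines are derivatives resistant to it. In the labels A4573-R received 650 uM of it and TC-71-R received 400 uM, doses that are very high for such a compound, so the unit is printed as given and may be wrong. All cells grew in RPMI medium with serum and HEPES. Resistance and presence of the compound cannot be told apart, and these data hold 1 R line per parent.

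MHC class I molecules show fragments of the cell's own proteins to CD8 T cells. A heavy chain (HLA-B, HLA-C and, for specialised roles, HLA-E and HLA-F) folds with the light chain beta-2 microglobulin, the product of B2M. The transporter made of TAP1 and TAP2 carries peptides into the endoplasmic reticulum, and tapasin (TAPBP) holds the empty heavy chain beside the transporter until a peptide binds. NLRC5 is the transactivator of class I genes: it acts with RFX, CREB/ATF and NF-Y proteins at a shared promoter module, while interferon and NF-kappaB signals act through sites of their own. Ewing sarcoma cells are known for low class I levels. In bulk RNA, fewer cells with an mRNA and less of that mRNA per cell cannot be told apart.

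Of the 9 genes, 7 are in the RefSeq promoter table of build GRCh38.p14, with 8 windows, and the 250 bases before the annotated start were searched on both strands. The 5 windows shown are those of the neighbouring heavy chains HLA-B and HLA-C, of B2M, and of TAP1 and TAPBP, the 2 loading genes whose mRNA was higher in TC-71-R; HLA-E and NLRC5 are not in the table. Capitals mark matches to 4 motifs: CCAAT, the NF-Y box; TGACG, part of the site bound by CREB/ATF proteins; GAAA, any 2 bases and GAAA again, a core like that of interferon response elements; and GGG, any 2 or 3 bases and TTCC, which resembles NF-kappaB sites. Each sequence reads 5′ to 3′ towards the gene.
HLA-B, chr6:31357180-31357429, minus strand: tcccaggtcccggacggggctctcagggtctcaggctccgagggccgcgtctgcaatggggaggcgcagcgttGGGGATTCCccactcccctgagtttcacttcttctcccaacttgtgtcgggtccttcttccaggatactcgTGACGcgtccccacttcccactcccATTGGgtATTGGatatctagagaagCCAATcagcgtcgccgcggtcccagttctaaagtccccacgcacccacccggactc
HLA-C, chr6:31272093-31272342, minus strand: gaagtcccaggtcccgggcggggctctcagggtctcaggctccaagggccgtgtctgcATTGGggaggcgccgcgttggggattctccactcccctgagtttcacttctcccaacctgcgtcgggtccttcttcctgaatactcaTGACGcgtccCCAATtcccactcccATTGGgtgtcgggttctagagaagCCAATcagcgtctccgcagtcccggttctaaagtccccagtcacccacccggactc
B2M, chr15:44711267-44711516, plus strand: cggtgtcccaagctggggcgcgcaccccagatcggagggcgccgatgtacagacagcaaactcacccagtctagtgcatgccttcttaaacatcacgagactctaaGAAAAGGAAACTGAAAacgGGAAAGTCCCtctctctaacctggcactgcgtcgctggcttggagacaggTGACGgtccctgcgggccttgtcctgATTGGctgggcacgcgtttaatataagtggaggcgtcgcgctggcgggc
TAP1, chr6:32853705-32853954, minus strand: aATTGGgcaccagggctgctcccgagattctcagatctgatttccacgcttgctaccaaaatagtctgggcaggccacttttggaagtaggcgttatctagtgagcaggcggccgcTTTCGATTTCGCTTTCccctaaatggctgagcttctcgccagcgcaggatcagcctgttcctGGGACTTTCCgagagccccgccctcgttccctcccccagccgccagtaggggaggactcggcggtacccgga
TAPBP, chr6:33314079-33314328, minus strand: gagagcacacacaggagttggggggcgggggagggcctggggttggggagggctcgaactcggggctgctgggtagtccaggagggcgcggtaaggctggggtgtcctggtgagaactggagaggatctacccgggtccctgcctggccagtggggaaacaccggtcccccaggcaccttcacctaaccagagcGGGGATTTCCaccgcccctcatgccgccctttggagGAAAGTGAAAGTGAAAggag

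TGACG stands upstream of a CCAAT box in the HLA-B, HLA-C and B2M windows, which is the order of these elements in the class I module. The HLA-B and HLA-C windows are 89% identical (226 of 254 aligned positions), and their TGACG lies at -106 to -102 in HLA-B and at -105 to -101 in HLA-C, counted from the start. B2M, TAP1 and TAPBP each hold a pair of overlapping interferon-type cores, and each holds an NF-kappaB-type match. No match to one motif overlapped a match to another. Of the 7 genes, 5 have CCAAT, 4 TGACG, 5 the interferon-type core and 4 the NF-kappaB-type letters. Over all 35116 windows of that length in the table, 32% hold CCAAT, 21.2% TGACG, 3.02% the interferon-type core and 9.61% the NF-kappaB-type letters. The TAP1 window further along the gene held none of the 4. These are letter matches, not measured binding.

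Levels are given in CPM, reads per 1000000 on library sizes that the authors had scaled, with the 3 libraries of a group in the order of their numbers and then the mean ± SD (n = 3). Each library had 43.98 to 62.13 M reads (M, 1000000) assigned to named genes, and 1 read is worth 0.0103 to 0.0148 CPM. The library size behind the deposited CPM also counts 5 rows without a gene name, which take 30.6% to 42.0% of the reads, so all levels are lower than per 1000000 named reads. Fold changes are from limma on log2(CPM + 1), with 1 mean per group over all 12 libraries, and p-values were adjusted by Benjamini and Hochberg's method over the 14335 genes that reached 1 CPM in 3 or more libraries. A call means an adjusted p under 0.05. The added 1 draws the log2 fold change of a low gene towards 0, so the ratio of mean CPM stands beside it. Whether the 3 libraries of each group came from separate cultures is not labelled, and p-values reflect the spread among libraries alone. Of the 6 Ewing sarcoma markers, 5 averaged at least 1 CPM in each group. CD99, the defining surface marker, had at most 1 read in any library. How reads that match several places were counted is not given, so this does not show that CD99 mRNA was absent. The 9 leukocyte markers summed to 0.414 to 0.837 CPM in A4573-R, 0.314 to 0.425 CPM in A4573 parental, 0.969 to 1.27 CPM in TC-71-R and 1.20 to 1.42 CPM in TC-71 parental, with 4, 2, 5 and 5 of them at 0 reads in those groups in that order. The T cell marker CD3D and the B cell marker MS4A1 had 0 reads in all 12 libraries. PTPRC, the 1 leukocyte marker that passed the filter, averaged 0.258 CPM in A4573-R and 0.0501 CPM in A4573 parental. It averaged 0.962 CPM in TC-71-R and 1.07 CPM in TC-71 parental. PTPRC was called higher in A4573-R than in its parent and in TC-71 than in A4573, and not called in TC-71-R over TC-71 parental. The part of the leukocyte markers in the class I levels was not tested.

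**Figure D1:**
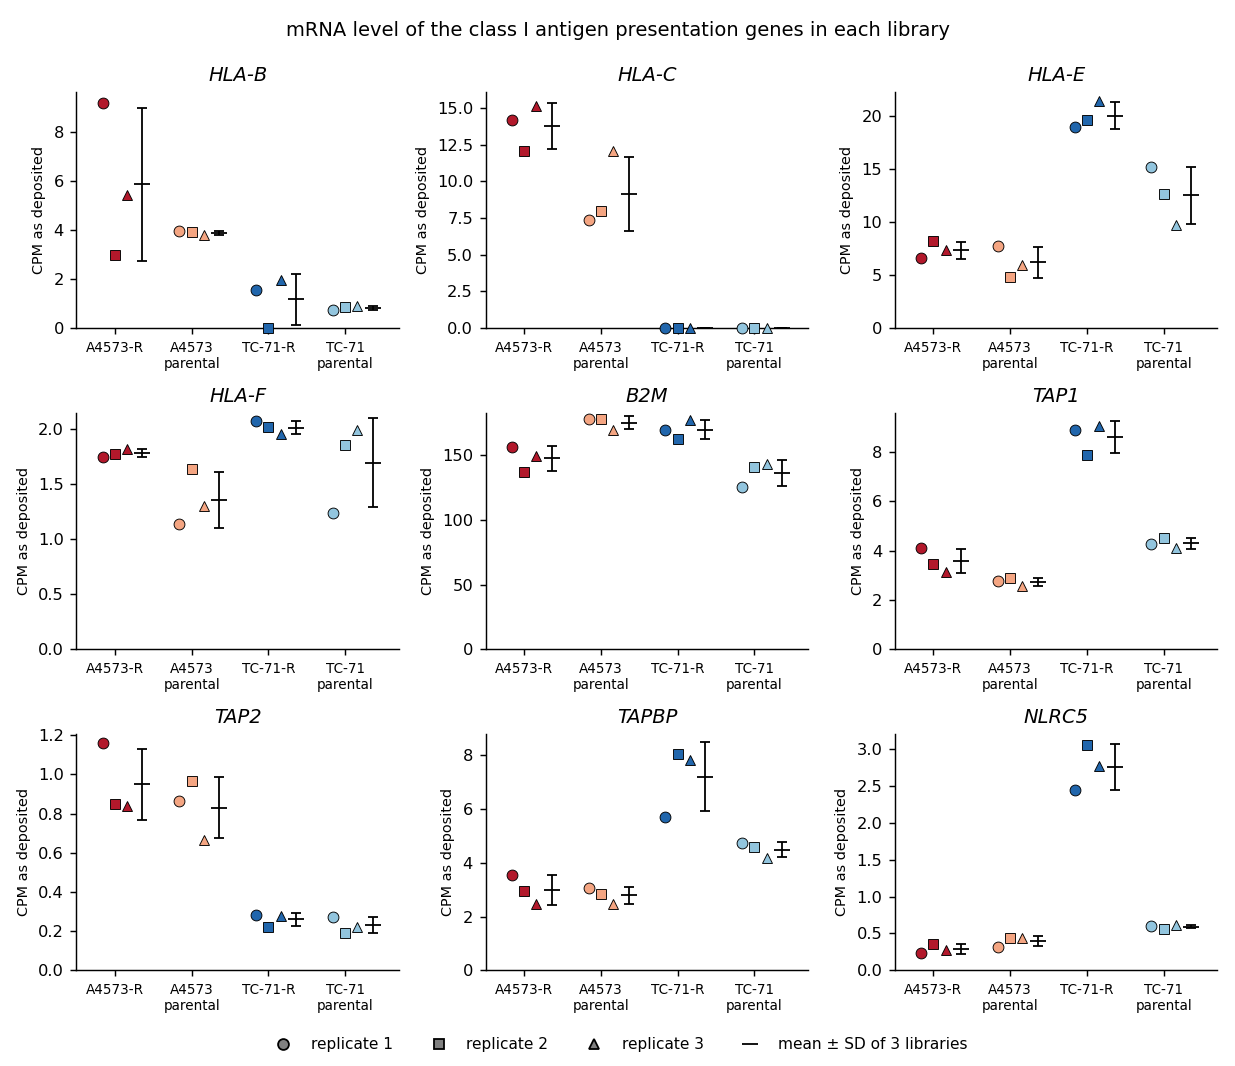
Level of each of the 9 genes in CPM (vertical axes, from 0, scaled per gene) in the 12 libraries; symbols are the replicates and the dash with bars is the mean ± SD of 3. NLRC5 stands near 2.75 CPM in TC-71-R and under 1 CPM elsewhere, HLA-C is close to 0 in both TC-71 groups, and 1 TC-71-R library has HLA-B at 0.

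B2M was the most abundant of the 9 per length in every group, at 24.3 CPM per kilobase of annotated exon in A4573-R, 28.8 in A4573 parental, 27.9 in TC-71-R and 22.4 in TC-71 parental. In A4573-R and A4573 parental the order of level per kilobase below it was HLA-C, HLA-E, HLA-B, TAP1, TAPBP, HLA-F, TAP2 and NLRC5. In TC-71-R and TC-71 parental it was HLA-E, TAP1, TAPBP, HLA-F, HLA-B, NLRC5, TAP2 and HLA-C. Neighbours in these orders lay within each other's spread in several places: TAP1 and TAPBP in A4573-R stood at 0.743 ± 0.102 and 0.592 ± 0.107 CPM per kilobase, and in TC-71-R HLA-F and HLA-B at 0.465 ± 0.013 and 0.386 ± 0.342.

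TC-71-R had more mRNA of the class I regulator, the light chain, 1 heavy chain and 2 loading genes than TC-71 parental. NLRC5 reached 1 CPM in TC-71-R only, and so entered the test through the group where it is high. Of the other 7 genes tested, TAP1, HLA-E, TAPBP and B2M were called higher, none was called lower by limma, and HLA-B, HLA-C and HLA-F did not pass. No gene of the 7 was lower at an unadjusted p under 0.05 either, and edgeR and DESeq2 called 0 lower. This comparison called 38.8% of all tested genes higher and 39.6% lower. The median log2 fold change was 0.32 over the 7 genes and -0.003 over all tested genes. TAP2 stayed under 1 CPM on average in every group and was not tested.

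In A4573-R, 2 heavy chains and TAP1 were higher than in A4573 parental, and the light chain was lower. HLA-C, TAP1 and HLA-F were called higher, B2M was called lower, and HLA-B, HLA-E, TAPBP and NLRC5 did not pass. This comparison called 38.3% of all tested genes higher and 34.1% lower, so 3 higher of 8 is about the background share. The median log2 fold change was 0.24 over the 8 genes and 0.02 over all tested genes.

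**Figure D2:**
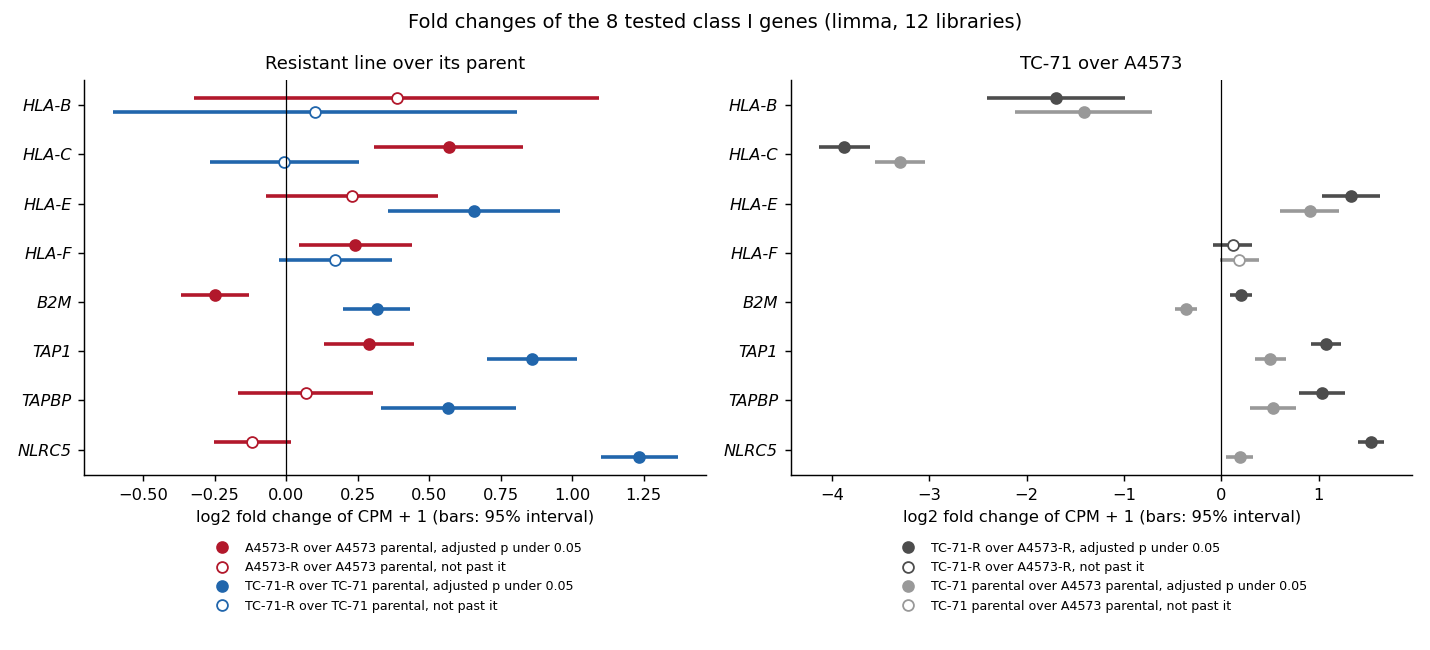
Log2 fold change of CPM + 1 (horizontal axis, 95% intervals) of the 8 tested genes, each resistant line over its parent on the left and TC-71 over A4573 on the right; filled points have an adjusted p under 0.05. On the left B2M lies at -0.25 for A4573-R and 0.32 for TC-71-R, and NLRC5 at -0.12 and 1.24.

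NLRC5, the class I transactivator (chromosome 16, 56989485 to 57083531, plus strand; positions here and below are from GENCODE release 29 on GRCh38), had 2.44, 3.05 and 2.76 CPM in TC-71-R (2.75 ± 0.31), against 0.596, 0.568 and 0.610 CPM in TC-71 parental (0.591 ± 0.022). Every TC-71-R library lay far above every parental one, on 165 to 268 reads in TC-71-R and 47 to 55 in TC-71 parental. The ratio of means was 4.66, and the log2 fold change was 1.24 (SE 0.06). As the filter on low genes had kept NLRC5 through TC-71-R, the p is given from the fit of all genes without that filter (limma adjusted p = 3.7e-08). In A4573-R it had 0.231, 0.362 and 0.271 CPM, against 0.319, 0.442 and 0.434 CPM in A4573 parental. The groups overlapped and the log2 fold change of -0.12 did not pass (SE 0.06, 95% interval -0.25 to 0.02, limma adjusted p = 0.1), although it did on another scaling, quantile normalization (-0.26, limma adjusted p = 0.0014). The change in TC-71-R exceeded that in A4573-R by 1.35 on the log2 scale (SE 0.09; without the filter, limma adjusted p = 4.2e-07).

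TAP1, one chain of the peptide transporter (chromosome 6, 32845209 to 32853978, minus strand), had 8.90, 7.87 and 9.06 CPM in TC-71-R (8.61 ± 0.65), against 4.28, 4.50 and 4.09 CPM in TC-71 parental (4.29 ± 0.21). The groups stood clear of each other, with a ratio of means of 2.01 and a log2 fold change of 0.86 (SE 0.07, limma adjusted p = 3.2e-08). In A4573-R it had 4.11, 3.45 and 3.15 CPM (3.57 ± 0.49), against 2.75, 2.89 and 2.55 CPM in A4573 parental (2.73 ± 0.17), again without overlap but with a smaller log2 fold change of 0.29 (SE 0.07, limma adjusted p = 0.0025). TAP1 thus rose in both resistant lines, and by 0.57 more on the log2 scale in TC-71-R (SE 0.10, limma adjusted p = 0.00013). Of its exon bases, 9.49% lie opposite PSMB8-AS1, and the strand setting of the counting is unknown here, so reads from that overlap cannot be assigned.

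TAP2, its partner chain (chromosome 6, 32821833 to 32838780, minus strand), had 1.16, 0.850 and 0.840 CPM in A4573-R, against 0.864, 0.966 and 0.663 CPM in A4573 parental. It had 0.281, 0.223 and 0.278 CPM in TC-71-R, against 0.274, 0.193 and 0.222 CPM in TC-71 parental. Within each line the groups overlapped, while every TC-71 library lay below every A4573 library. Without the filter on low genes, its log2 fold change was 0.09 in A4573-R (limma adjusted p = 0.44) and 0.04 in TC-71-R (limma adjusted p = 0.8), and -0.57 in TC-71 parental over A4573 parental (limma adjusted p = 2.8e-05). A share of 32.3% of its exon bases is also annotated to another protein-coding gene on the same strand, AL669918.1, so its level is uncertain.

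TAPBP, which encodes tapasin (chromosome 6, 33299694 to 33314387, minus strand), had 5.72, 8.05 and 7.84 CPM in TC-71-R (7.20 ± 1.29), against 4.72, 4.58 and 4.18 CPM in TC-71 parental (4.49 ± 0.28). All 3 TC-71-R libraries were above the parental ones, with a ratio of means of 1.60 and a log2 fold change of 0.57 (SE 0.11, limma adjusted p = 0.00023). In A4573-R it had 3.56, 2.94 and 2.48 CPM, against 3.08, 2.83 and 2.47 CPM in A4573 parental. These overlapped almost fully, with a log2 fold change of 0.07 (SE 0.11, 95% interval -0.17 to 0.30, limma adjusted p = 0.6). The 2 changes differed by 0.50 on the log2 scale (SE 0.16, limma adjusted p = 0.0089).

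B2M, the shared light chain (chromosome 15, 44711487 to 44718877, plus strand), had 170, 163 and 177 CPM in TC-71-R (169.9 ± 7.1), against 125, 141 and 143 CPM in TC-71 parental (136 ± 9.8). In A4573-R it had 156, 137 and 149 CPM (148 ± 9.9), against 178, 178 and 169.8 CPM in A4573 parental (175 ± 4.8). Neither pair overlapped, and the directions were opposite: the log2 fold change was 0.32 in TC-71-R (SE 0.06, limma adjusted p = 7.9e-05) and -0.25 in A4573-R (SE 0.06, limma adjusted p = 0.00081). The difference between the 2 changes was 0.57 on the log2 scale (SE 0.08, limma adjusted p = 7.7e-06). It is the gene of the 9 with the most reads, outside the MHC region, and no other annotated exon overlaps it.

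HLA-E, a heavy chain that presents peptides from the leaders of other class I chains to NK cell receptors (chromosome 6, 30489467 to 30494205, plus strand), had 19.0, 19.6 and 21.5 CPM in TC-71-R (20.02 ± 1.28), against 15.2, 12.6 and 9.71 CPM in TC-71 parental (12.5 ± 2.7). The parental libraries were spread, yet all lay below the TC-71-R libraries, and the log2 fold change was 0.66 (SE 0.14, limma adjusted p = 0.00053). In A4573-R it had 6.57, 8.17 and 7.33 CPM, against 7.76, 4.84 and 5.99 CPM in A4573 parental. The overlapping groups gave a log2 fold change of 0.23 (SE 0.14, 95% interval -0.07 to 0.53, limma adjusted p = 0.15), which passed without A4573 parental replicate 1 (0.38, limma adjusted p = 0.022) and was 0.09 without A4573 parental replicate 2 (limma adjusted p = 0.59). The 2 changes differed by 0.43 on the log2 scale and did not pass (SE 0.20, limma adjusted p = 0.062). They did pass with a pseudocount of 5, under TMM scaling, after quantile normalization and without A4573 parental replicate 2, A4573-R replicate 2 or TC-71 parental replicate 1 (limma adjusted p of 0.025, 0.049, 0.024, 0.014, 0.044 and 0.014).

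HLA-C, a classical heavy chain (chromosome 6, 31268749 to 31272130, minus strand), had 14.2, 12.1 and 15.1 CPM in A4573-R (13.8 ± 1.6), against 7.37, 7.98 and 12.05 CPM in A4573 parental (9.13 ± 2.54). The groups came close without overlapping, as A4573 parental replicate 3 reached 12.05 and A4573-R replicate 2 had 12.07 CPM. The ratio of means was 1.51 and the log2 fold change 0.57 (SE 0.12, limma adjusted p = 0.00062). In the TC-71 lines it was all but undetected, with 1 read over the 3 TC-71-R libraries and 2 reads over the 3 TC-71 parental libraries, and no fold change is given between them. Scaled by library size, HLA-C was 3312 times as high in A4573-R as in TC-71-R by reads (95% exact Clopper-Pearson interval 594 to 130900) and 1179 times as high in A4573 parental as in TC-71 parental (325.9 to 9738). These intervals cover counting error only. With TC-71 near 0, the limma difference between the changes (-0.57, adjusted p = 0.0067) rests on the A4573 change, and edgeR and DESeq2 on the recovered reads did not call it (adjusted p = 0.65 and 0.44).

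HLA-F, a heavy chain with limited expression (chromosome 6, 29722775 to 29738528, plus strand), had 1.75, 1.77 and 1.82 CPM in A4573-R, against 1.14, 1.64 and 1.30 CPM in A4573 parental. The A4573-R libraries were tightly grouped just above the highest parental one, with a log2 fold change of 0.24 (SE 0.09, limma adjusted p = 0.029). This call was lost with edgeR (adjusted p = 0.053), with no filter (limma adjusted p = 0.11), after quantile normalization (0.13, limma adjusted p = 0.21) and without A4573 parental replicate 1 or 3 or A4573-R replicate 2 or 3 (limma adjusted p of 0.14, 0.078, 0.055 and 0.067). In TC-71-R it had 2.07, 2.02 and 1.96 CPM, against 1.24, 1.86 and 2.00 CPM in TC-71 parental, an overlap that gave 0.17 (SE 0.09, 95% interval -0.03 to 0.37, limma adjusted p = 0.1). It passed after quantile normalization (0.25, limma adjusted p = 0.022) and without TC-71 parental replicate 3 (0.25, limma adjusted p = 0.029), and the low library here is TC-71 parental replicate 1. Exons of HLA-F lie opposite 3 other annotated genes over 28.5% of their bases, HLA-F-AS1 among them, and their reads cannot be told apart without the strand.

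HLA-B, the other classical heavy chain followed (chromosome 6, 31269491 to 31357188 as annotated, minus strand), was the least even of the 9. It had 9.19, 3.00 and 5.43 CPM in A4573-R (5.87 ± 3.12), against 3.96, 3.91 and 3.81 CPM in A4573 parental (3.89 ± 0.08). The 3 parental libraries were nearly equal, while the A4573-R libraries lay on both sides of them. It had 1.55, 0 and 1.98 CPM in TC-71-R (1.18 ± 1.04), against 0.739, 0.857 and 0.909 CPM in TC-71 parental (0.835 ± 0.087). In TC-71-R this was 105, 0 and 192 reads, and 0 reads in replicate 2 allow a level of up to 0.0393 CPM (3 reads). Of the 14335 tested genes, HLA-B in TC-71-R replicate 2 was the 1 case of a gene at 0 reads in a library while both other libraries of its group had at least 1 CPM. The log2 fold changes were 0.39 in A4573-R (SE 0.33, 95% interval -0.32 to 1.09, limma adjusted p = 0.31) and 0.10 in TC-71-R (SE 0.33, 95% interval -0.61 to 0.81, limma adjusted p = 0.79). Without TC-71-R replicate 2 the TC-71-R change was called, at 0.59 (limma adjusted p = 0.04), and without A4573-R replicate 1 the A4573-R change was 0.05 (limma adjusted p = 0.9), against 0.73 without A4573-R replicate 2 (limma adjusted p = 0.06).

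Class I heavy chains are close relatives with many alleles, and the sources used here do not give how reads that match several of them were counted, so the levels of HLA-B, HLA-C, HLA-E and HLA-F are uncertain in all groups. HLA-B also shares 35 exon bases with HLA-C on the same strand and lies opposite the pseudogene AL671883.2 over 17.8% of its exon bases. The part of read assignment in the zeros of HLA-B and HLA-C was not tested.

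The spread between libraries of a group was wide for the heavy chains and TAPBP. The SD of log2(CPM + 1) within groups, pooled over the 4, was 0.54 for HLA-B, 0.22 for HLA-E, 0.19 for HLA-C, 0.17 for TAPBP, 0.14 for HLA-F, 0.10 for TAP1, 0.08 for B2M and 0.08 for NLRC5. The median was 0.06 over all tested genes and 0.08 over those averaging 1 to 10 CPM. The added 1 compresses the spread of genes under 1 CPM, and relative to its mean NLRC5 was less even than TAP1 in A4573. The SD of NLRC5 was 23.3% of the mean CPM in A4573-R and 17.3% in A4573 parental, against 13.7% and 6.11% for TAP1. NLRC5 rested on only 16 to 29 reads per library in A4573-R and 24 to 38 in A4573 parental. TAP1 had 244 to 284 and 207 to 248 reads in those groups. The part of counting error in this spread was not tested.

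**Figure D3:**
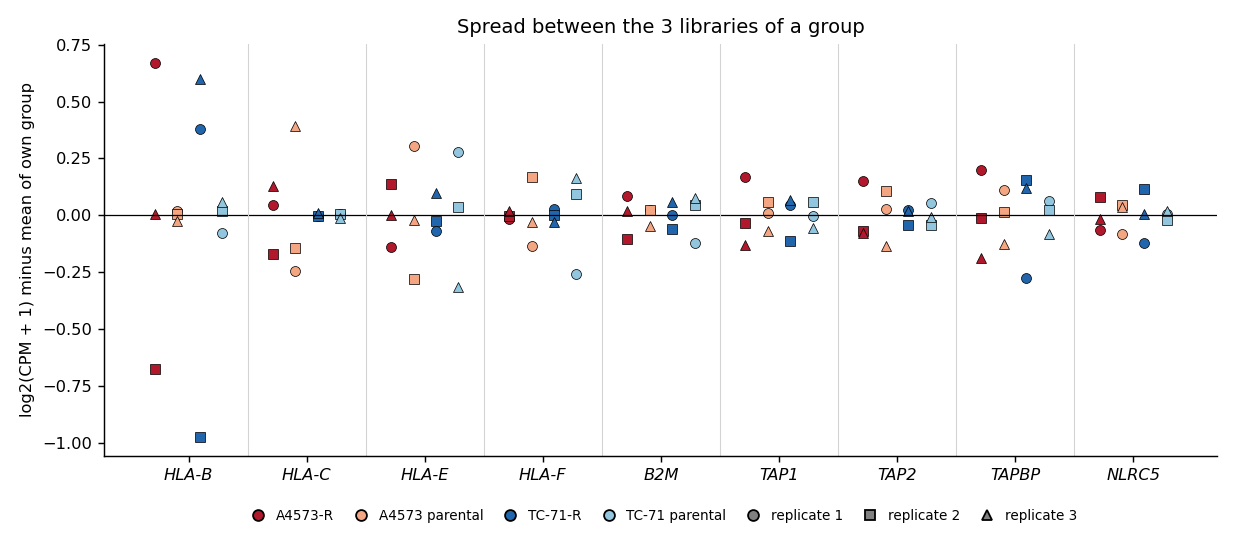
Each library's log2(CPM + 1) minus the mean of its own group (vertical axis) for the 9 genes; colours are groups and symbols replicates. HLA-B in A4573-R and TC-71-R spreads widest, with SDs of 0.67 and 0.85, while its parental libraries have SDs of 0.02 and 0.07.

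Set against A4573, the TC-71 cells had less of the classical heavy chains HLA-B and HLA-C and of TAP2, and more TAP1 and TAPBP. Between the parental lines, TC-71 had lower HLA-C, HLA-B and B2M and higher HLA-E, TAP1, TAPBP and NLRC5, with HLA-F not past the threshold (0.19, limma adjusted p = 0.07). HLA-F did pass without TC-71 parental replicate 1 (0.32, limma adjusted p = 0.0013), without A4573 parental replicate 2 (0.27, limma adjusted p = 0.016) and when scaled to named-gene reads (0.27, limma adjusted p = 0.03), but was -0.03 after quantile normalization (limma adjusted p = 0.75). This comparison called 45.9% of all tested genes higher and 44.1% lower. HLA-B was lower by 1.42 on the log2 scale than in A4573 parental (SE 0.33, limma adjusted p = 0.00087), a call that DESeq2 did not make (adjusted p = 0.053). HLA-E averaged 2.02 times the A4573 parental level (0.91, SE 0.14, limma adjusted p = 1.7e-05), TAP1 1.57 times (0.50, SE 0.07, limma adjusted p = 9e-06) and TAPBP 1.61 times (0.54, SE 0.11, limma adjusted p = 0.00029). The NLRC5 difference of 0.19 (limma adjusted p = 0.011) was lost after quantile normalization (0.03, limma adjusted p = 0.66), with a pseudocount of 5 (limma adjusted p = 0.062) and without A4573 parental replicate 1 (0.15, limma adjusted p = 0.06). That of B2M (-0.36, limma adjusted p = 1.4e-05) was lost on quantile-normalized values (-0.06, limma adjusted p = 0.31).

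Between the resistant lines HLA-E, TAP1 and TAPBP were again higher in TC-71-R, and B2M was higher as well (0.20, SE 0.06, limma adjusted p = 0.0027). NLRC5 was also higher, but it had entered the test through TC-71-R, the high group here. HLA-C and HLA-B were lower. This comparison called 43.7% of all tested genes higher and 45.5% lower. NLRC5 was 9.55 times as high in TC-71-R as in A4573-R (log2 1.54; without the filter, SE 0.07, limma adjusted p = 1.9e-09). HLA-E was 2.72 times as high, TAP1 2.41 times and TAPBP 2.41 times. HLA-B was lower by 1.70 on the log2 scale (SE 0.33, limma adjusted p = 0.00017). These comparisons use the libraries that also enter the resistant-over-parental ones.

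When the difference between the changes was tested, TAP1 rose more in TC-71-R than in A4573-R, and TAPBP, which rose in TC-71-R, had a larger change there as well. B2M changed in opposite directions in the 2 lines. NLRC5 also differed, having entered through TC-71-R. The call for HLA-C restates its A4573 change, since with 1 and 2 reads in the TC-71 groups its TC-71 change is held near 0. That test called 37.9% of all tested genes higher and 40.2% lower. The median difference was 0.43 on the log2 scale over the 7 genes other than NLRC5 and -0.01 over all tested genes.

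The genes whose log2 profile over the 12 libraries, centred on its own mean, was closest to that of HLA-B were BCYRN1, ASXL3 and GPC1, with root mean square differences of 0.37, 0.40 and 0.40. The closest to B2M were MIS12, GNG10 and SNX21, at 0.054, 0.058 and 0.061. MIS12 averaged 31.1 CPM in A4573-R, 36.7 in A4573 parental, 36.8 in TC-71-R and 28.5 in TC-71 parental, which is the order of the B2M means within each line. GPC1 averaged 9.09 CPM in A4573-R, 6.99 in A4573 parental, 1.75 in TC-71-R and 2.50 in TC-71 parental.

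The proteasome cuts proteins into the peptides that TAP carries, and its interferon-induced form favours class I ligands. Of 6 immunoproteasome genes, 4 were tested: 3 were called higher and 1 lower in TC-71-R, and none higher and 1 lower in A4573-R by limma, where 1 was higher at an unadjusted p under 0.05 and edgeR and DESeq2 called 0. The medians were 0.47 and 0.02 on the log2 scale. Beside the counts of this and the following lists, 38.8% of all tested genes were higher and 39.6% lower in TC-71-R. In A4573-R 38.3% were higher and 34.1% lower. PSME1, a subunit of the PA28 activator, averaged 59.2 ± 0.8 CPM in TC-71-R and 18.6 ± 0.4 CPM in TC-71 parental (log2 1.61, limma adjusted p = 1e-14). PSMB10, an inducible catalytic subunit, averaged 3.41 ± 0.19 CPM in TC-71-R and 2.15 ± 0.27 CPM in TC-71 parental (0.49, limma adjusted p = 0.0001). POMP, the gene called lower there, averaged 27.2 ± 1.4 CPM in TC-71-R and 45.8 ± 1.3 CPM in TC-71 parental (-0.73, limma adjusted p = 4.4e-10). PSME2, the other PA28 subunit, was lower in A4573-R, at 21.7 ± 0.8 CPM against 28.9 ± 1.1 CPM in A4573 parental (-0.40, limma adjusted p = 3.7e-07). The 2 untested genes are inducible subunits and are named after their values were seen. PSMB9 had 0.637, 0.616 and 0.474 CPM in TC-71-R, against 0.0954, 0.0845 and 0.0444 CPM in TC-71 parental, on 136 and 19 reads in all. PSMB8 had 0.178, 0.144 and 0.155 CPM in TC-71-R, against 0.0954, 0.133 and 0.166 CPM in TC-71 parental. Of 8 genes of the standard proteasome, 5 were higher and 2 lower in TC-71-R, and 3 were higher and 3 lower in A4573-R.

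Peptide loading also needs the chaperones of the endoplasmic reticulum and the aminopeptidases that trim peptides. Of 8 such genes, 2 were higher and 4 lower in TC-71-R, and none was higher and 6 were lower in A4573-R by limma, where 0 were higher at an unadjusted p under 0.05 or by edgeR or DESeq2. The medians were -0.16 and -0.41 on the log2 scale. Calreticulin (CALR) averaged 324 ± 20.4 CPM in TC-71-R and 247 ± 7.7 CPM in TC-71 parental, and calnexin (CANX) 221 ± 12.1 and 182 ± 4.9 CPM in those groups (log2 0.39 and 0.27, limma adjusted p = 6.8e-06 and 0.00026). The aminopeptidase ERAP1 averaged 2.30 ± 0.41 CPM in TC-71-R and 4.26 ± 0.12 CPM in TC-71 parental (-0.68, limma adjusted p = 2.9e-07). ERAP2, its relative, averaged 2.30 ± 0.21 CPM in A4573-R and 4.25 ± 0.25 CPM in A4573 parental (-0.67, limma adjusted p = 2.7e-08). HSPA5, the chaperone BiP, was lower in both resistant lines, at 310 ± 28.9 CPM in TC-71-R against 514 ± 20.4 CPM in TC-71 parental, and at 279 ± 40.0 CPM in A4573-R against 458 ± 10.48 CPM in A4573 parental (-0.73 and -0.72, limma adjusted p = 8.4e-07 and 1.2e-06).

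Among 16 genes for factors that act at class I promoters, 6 were higher and 6 lower in TC-71-R, and 5 were higher and 5 lower in A4573-R, with medians of -0.07 and 0.04 on the log2 scale. NFKB1, the p50 precursor of NF-kappaB, averaged 2.50 ± 0.18 CPM in TC-71-R and 13.2 ± 0.3 CPM in TC-71 parental (log2 -2.02, limma adjusted p = 1.5e-14). IRF2, an interferon regulatory factor, averaged 5.73 ± 0.11 CPM in TC-71-R and 3.04 ± 0.26 CPM in TC-71 parental, and NFYA, a subunit of NF-Y, 45.4 ± 1.5 and 28.6 ± 0.1 CPM in those groups (0.74 and 0.65, limma adjusted p = 9.5e-09 and 4.8e-10). NFKB2, the p52 precursor, averaged 34.2 ± 2.7 CPM in A4573-R and 13.2 ± 0.4 CPM in A4573 parental (1.31, limma adjusted p = 4.4e-12). RELB, its partner, averaged 9.42 ± 0.74 CPM in A4573-R and 4.45 ± 0.33 CPM in A4573 parental (0.93, limma adjusted p = 3.2e-09), but 0.716 ± 0.069 CPM in TC-71-R and 1.90 ± 0.11 CPM in TC-71 parental (-0.76, limma adjusted p = 2.5e-08). RFX5, a subunit of the RFX complex, averaged 65.5 ± 1.6 CPM in A4573-R and 88.8 ± 0.5 CPM in A4573 parental (-0.43, limma adjusted p = 4.7e-09). Of 7 repressors, 3 were higher and 4 lower in TC-71-R, and 2 were higher and 4 lower in A4573-R.

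Of the 11 genes of the interferon gamma pathway, the main inducer of NLRC5 and class I, 10 were tested. In TC-71-R 7 were higher and 3 lower, and in A4573-R 3 were higher and 4 lower. The medians were 0.21 and -0.08 on the log2 scale. The 7 include IRF9, which reached 1 CPM in TC-71-R only and so entered the test through the group where it is high. IRF9 had 1.39, 2.26 and 1.54 CPM in TC-71-R, against 0.799, 0.555 and 0.577 CPM in TC-71 parental. The kinase JAK1 averaged 1248 ± 1.6 CPM in TC-71-R and 660.1 ± 5.6 CPM in TC-71 parental (log2 0.92, limma adjusted p = 1.3e-12). SOCS3, a feedback inhibitor of cytokine signalling, averaged 3.60 ± 0.20 CPM in TC-71-R and 1.74 ± 0.17 CPM in TC-71 parental (0.75, limma adjusted p = 3.6e-08). The receptor chain IFNGR1 averaged 26.5 ± 0.6 CPM in A4573-R and 15.9 ± 0.6 CPM in A4573 parental (0.71, limma adjusted p = 1.3e-09). In TC-71-R it averaged 21.8 ± 1.1 CPM, against 27.5 ± 1.0 CPM in TC-71 parental. JAK2 averaged 7.69 ± 0.10 CPM in TC-71-R and 14.2 ± 0.3 CPM in TC-71 parental (-0.81, limma adjusted p = 3.9e-10). PTPN2 was also lower in TC-71-R (-0.43, limma adjusted p = 1.5e-07). JAK2 and SOCS3 were lower in A4573-R (-0.22 and -0.32, limma adjusted p = 0.00079 and 0.00037).

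Of 11 other class I and class I-like genes, 10 were tested: 4 were higher and 4 lower in TC-71-R, and 6 were higher and 2 lower in A4573-R, with medians of 0.04 and 0.46 on the log2 scale. ULBP1 and ULBP2 encode ligands of the NK cell receptor NKG2D. ULBP1 averaged 36.7 ± 12.1 CPM in A4573-R and 8.51 ± 0.15 CPM in A4573 parental (log2 1.94, limma adjusted p = 5.4e-09), but 21.0 ± 0.4 CPM in TC-71-R and 53.8 ± 0.8 CPM in TC-71 parental (-1.32, limma adjusted p = 3.4e-07). ULBP2 averaged 2.62 ± 0.26 CPM in A4573-R and 0.756 ± 0.039 CPM in A4573 parental (1.04, limma adjusted p = 3e-09). MICA, a further NKG2D ligand, averaged 3.19 ± 0.09 CPM in TC-71-R and 1.93 ± 0.13 CPM in TC-71 parental (0.52, limma adjusted p = 5.6e-05). FCGRT, the heavy chain of the neonatal Fc receptor, which also pairs with B2M, averaged 137 ± 2.1 CPM in TC-71-R and 258 ± 13.6 CPM in TC-71 parental (-0.90, limma adjusted p = 6.3e-12). Of 10 class II genes 3 passed the filter, of which 1 was higher and 2 were lower in TC-71-R. In A4573-R 2 were higher and none was lower by limma, also at an unadjusted p under 0.05, and edgeR and DESeq2 called 0 lower. The gene called higher in TC-71-R was HLA-DMA. It reached 1 CPM in TC-71-R only, and so entered the test through the group where it is high.

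A list of 43 other genes of the MHC region gives the calls of the neighbourhood. Of the 37 tested, 20 were higher and 3 lower in TC-71-R, and 14 were higher and 5 lower in A4573-R. Of all tested genes, 38.8% were higher and 39.6% lower in TC-71-R, and 38.3% were higher and 34.1% lower in A4573-R. The medians of the list were 0.27 and 0.09 on the log2 scale. The kinesin gene KIFC1 averaged 24.1 ± 0.9 CPM in TC-71-R and 7.55 ± 0.10 CPM in TC-71 parental (log2 1.55, limma adjusted p = 2.7e-12). The chloride channel gene CLIC1 was higher in both resistant lines, at 86.3 ± 1.4 CPM in TC-71-R against 40.3 ± 5.3 CPM in TC-71 parental, and at 81.5 ± 7.6 CPM in A4573-R against 51.5 ± 0.2 CPM in A4573 parental (1.09 and 0.65, limma adjusted p = 3e-09 and 1.8e-06). Markers of endothelium and fibroblasts, 4 genes, summed to 33.9 to 35.9 CPM in A4573-R and 30.8 to 32.1 in A4573 parental. They summed to 60.8 to 63.3 in TC-71-R and 22.2 to 22.9 in TC-71 parental. The endothelial PECAM1 and VWF had at most 4 reads in any library, so these sums are nearly all COL1A1 and DCN. DCN averaged 30.4 CPM in TC-71-R and 3.96 CPM in TC-71 parental. The part of these markers in the class I levels was not tested.

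**Figure D4:**
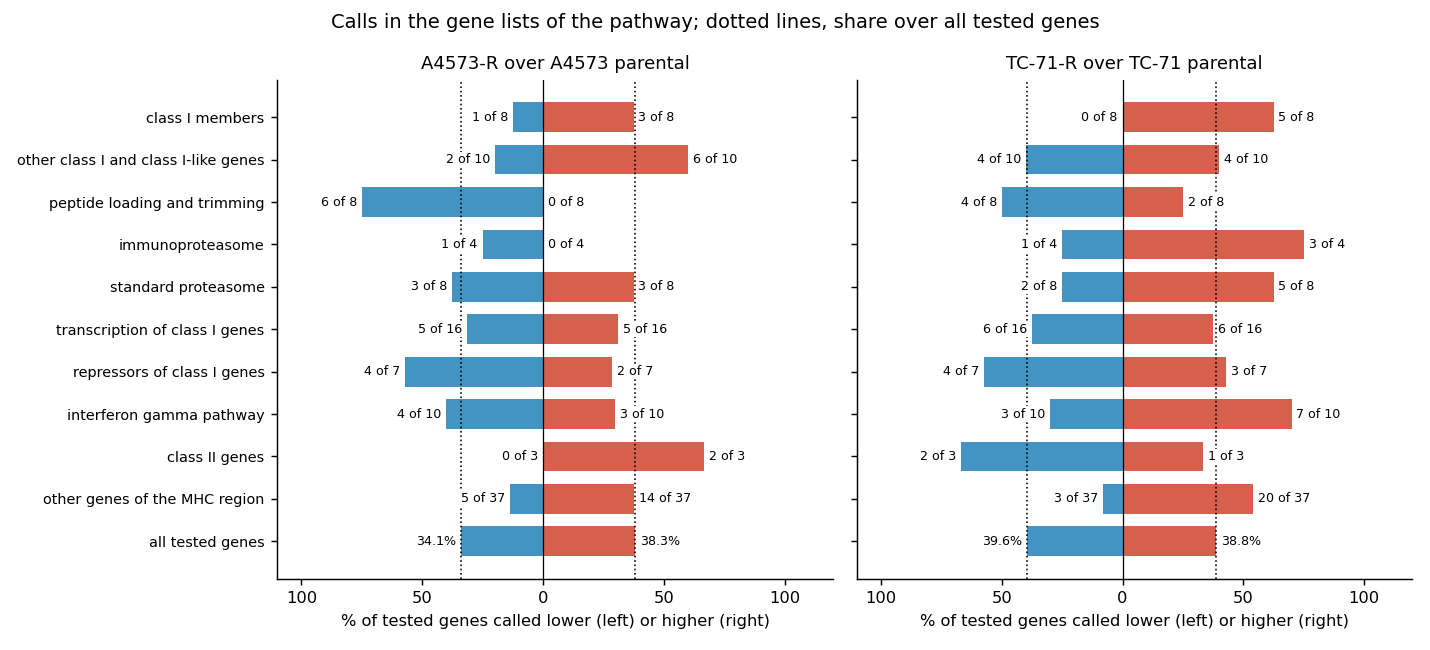
Share of the tested genes of each list called higher (right, red) or lower (left, blue) in A4573-R over A4573 parental and in TC-71-R over TC-71 parental, with counts; dotted lines and the bottom row give the share over all 14335 tested genes. The 8 class I genes have 5 higher, NLRC5 among them, and 0 lower in TC-71-R, and 3 higher and 1 lower in A4573-R. Like NLRC5, IRF9 and HLA-DMA of the lists entered the test through TC-71-R.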

How the data were processed

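RNA was sequenced from 12 libraries in 4 groups of 3, as paired ends of 100 bases after a TruSeq RNA kit, per the labels' protocols. Trimmomatic, STAR 2.4, HTSeq, edgeR and the GRCh38 build are listed in the submitters' processing notes; the sources used here give no annotation release, strand setting or rule for reads that match several genes. The deposited signal is normalized read signal per gene (CPM), which the authors scaled to library sizes times a factor of 0.894 to 1.06. Every value divided by its library's step came out whole within 0.001, so the reads were recovered; they were used for depth and for the count tests. Each file has 58293 rows, of which 5 carry no gene name (30.6% to 42.0% of the reads) and were left out. Rows sharing a symbol were summed, and each of the 9 genes has 1 row. Depth was 43.98 to 62.13 M named reads (M, 1000000).

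The 14335 genes that reached 1 CPM in 3 or more libraries were fitted as log2(CPM + 1) with limma 3.58.1 in R 4.3.3, with a mean per group and a variance trend, and Benjamini-Hochberg adjusted p-values (threshold 0.05, 2-sided). Tests for the 9 genes come from this fit. The fit was tested on simulated data. Alternatives were pseudocounts of 0.25 and 5, no filter, a mean of at least 5 CPM, other scalings, edgeR 4.0.16, DESeq2 1.42.0, the pair of groups alone, a replicate block and each library left out. The members and lists were chosen with earlier results of these data known. The named genes are all 9 members, up to 2 highest and 2 lowest called genes per list and resistant line, of which the text gives some, and the 3 genes nearest in profile to HLA-B and to B2M. Exon lengths, positions and overlaps come from GENCODE release 29, and promoters from RefSeq.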

Additional observations from a re-analysis of the deposited data

Results flagged for a closer look

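These genes are given because their change in TC-71-R over TC-71 parental differed from that in A4573-R over A4573 parental, by limma's test of the difference between the changes (log2 scale, TC-71 change minus A4573 change, adjusted p under 0.05). That test called 37.9% of all tested genes higher and 40.2% lower, so a difference between the lines was common.

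Among the members the difference was 1.353 for NLRC5, which passed the filter on low genes only through TC-71-R, 0.5706 for TAP1, 0.5657 for B2M, whose changes were opposite, 0.4986 for TAPBP and -0.5744 for HLA-C. The value for HLA-C rests on a change in A4573-R beside 1 and 2 reads in all in TC-71-R and TC-71 parental.

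Among class I-like genes it was -3.259 for ULBP1, -0.9608 for ULBP2, -0.9497 for FCGRT and -0.2791 for MICA. For loading and trimming it was 0.9521 for CALR, 0.7428 for CANX, 0.7126 for ERAP2 and -0.415 for ERAP1. For the immunoproteasome it was 1.633 for PSME1, 0.8458 for PSME2 and 0.2991 for PSMB10. The calls for MICA and PSMB10 were barely held. MICA lost its call without 1 library in 9 of 12 cases and under 7 of 10 other alternatives, edgeR (adjusted p = 0.36), DESeq2 (adjusted p = 0.33) and quantile normalization (-0.1005, adjusted p = 0.46) among them. PSMB10 lost its call without 1 library in 8 of 12 cases and under 5 of 10 others, edgeR (adjusted p = 0.096) and DESeq2 (adjusted p = 0.13) among them, and its lowest value without 1 library was 0.197, without A4573-R replicate 2.

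Among promoter factors it was -1.89 for NFKB1, -1.69 for RELB, -1.121 for NFKB2, 0.7362 for IRF2 and 0.7147 for RFX5. In the interferon gamma pathway it was 1.12 for JAK1, 1.07 for SOCS3 and -1.033 for IFNGR1. For the MHC-region neighbours it was 1.414 for KIFC1 and 0.4394 for CLIC1.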

How the results depend on the processing

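Over all alternatives and comparisons, 986 of the values for single members kept their direction and their side of the threshold. Of the others, 18 newly passed it, 14 no longer passed it and 14 changed sign. Many of the 986 could not change their log2 value, so that count does not measure how firm the values are. Such alternatives include leaving out a library from outside the comparison, lifting the filter and keeping the highest row of a symbol. The 14 that changed sign were values that had not passed. HLA-B in TC-71-R over TC-71 parental was -0.1121 with a pseudocount of 0.25, and between -0.1983 and 0.5892 without 1 library (-0.08742 without TC-71-R replicate 1 and -0.1983 without replicate 3, also with the genes tested kept, an alternative chosen after seeing the data). The HLA-B difference between the changes was 0.01471 with edgeR and -0.6248 to 0.2022 without 1 library, the highest without TC-71-R replicate 2. HLA-F gave 0.1193 for that difference and -0.03235 between the parental lines after quantile normalization, and 0.01135 for the difference without TC-71 parental replicate 3. TAPBP in A4573-R was -0.04996 after quantile normalization and -0.03208 to 0.1624 without 1 library, the lowest without A4573-R replicate 1.

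With genes averaging at least 5 CPM, only HLA-C, HLA-E and B2M were left: 1 member was higher in A4573-R, 2 in TC-71-R, 1 in the difference, 1 between the parental lines and 2 between the resistant lines, with 1 lower between the resistant lines. In A4573-R, 2 members were lower, NLRC5 being added, with a pseudocount of 0.25 (adjusted p = 0.039), after quantile normalization and without A4573-R replicate 2; leaving out 1 library gave 1 to 2. In the difference, 0 members were lower with edgeR or DESeq2, and 0 at an unadjusted p under 0.05. Beside these counts, the main fit called 34.1% to 45.9% of all tested genes in a given direction, depending on the comparison. NLRC5 leaves the test when a TC-71-R library is left out; with the tested genes kept, an alternative chosen after seeing the data, it stayed called in TC-71-R (lowest log2 0.471 over all alternatives, at a pseudocount of 5).

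The replicate numbers did not pair the libraries: same-numbered libraries had correlations of -0.0974 to 0.1652 in their deviations, and others -0.1807 to 0.1573. With the replicate block, 3 members were higher and 1 lower in A4573-R, 5 and 0 in TC-71-R, 4 and 1 in the difference, 5 and 3 between the parental lines and 5 and 2 between the resistant lines. NLRC5, which entered the test through TC-71-R, counts as higher in all of these except A4573-R. As shares of 34.1% to 45.9% of all tested genes were called in a given direction in the main fit, such counts are not particular to the members. The block also brought HLA-F between the parental lines past the threshold (adjusted p = 0.048) and changed no other member's call. The values of HLA-C in TC-71 and of PSMB8, PSMB9 and TAP2 rest on few reads.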
